A study of Carassius auratus with 9 samples.

Results

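The enzymes that add methyl groups to histones, DNA and protein arginines, and the demethylases that take methyl groups off histone lysines, were followed in the muscle of Hefang crucian carp (Carassius auratus) after 8 weeks on diets with more methionine (Met) and lysine (Lys). A gene was taken as a member where its deposited description held the name of a histone-lysine N-methyltransferase, a lysine-specific (histone) demethylase, a DNA (cytosine-5)-methyltransferase or a protein arginine N-methyltransferase. The rule used names only and found 188 of the 76298 genes of the table. Of these, 106 had the name of a histone lysine methyltransferase, 46 that of a demethylase, 16 that of a DNA methyltransferase and 20 that of an arginine methyltransferase. The LA fish ate a commercial feed with no added amino acid, the MA fish the same feed with 1.7% Met and 3.4% Lys added, and the HA fish the feed with 3.4% Met and 3.4% Lys added. MA and HA therefore differed from LA in both amino acids and from each other in Met alone. Each diet had 3 sequenced muscle libraries, described as biological replicates, and the number of fish in a library is not given in the sources used here. In all libraries the skeletal muscle markers (72 genes, among them creatine kinase, parvalbumin and fast myosin) far exceeded the markers of other cells, with a summed level between 250788 and 295749 FPKM (fragments per kilobase of gene, scaled by the total of counted fragments).

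The methyltransferases take the methyl group from S-adenosylmethionine, which cells make from methionine, and most of the demethylases are dioxygenases that use iron, oxygen and 2-oxoglutarate. Methylation of H3K4 and H3K36 (lysines of histone H3) is found on active genes and that of H3K9 and H3K27 on silent ones, so that the enzymes fall into writers and erasers of each mark. In skeletal muscle several of them have known roles. SMYD1 is needed to assemble myofibrils in fish. SETD7 and SETD3 act in muscle differentiation in mammals, SETD3 being known chiefly as the enzyme that methylates a histidine of actin. EZH1 and EZH2 write the polycomb mark that demethylases of the KDM6 class remove.

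Total counts per library ranged from 13962770 to 17177610, and the members held from 0.171% to 0.316% of them. A count of 3, taken as the floor of detection, stood for 0.175 to 0.215 CPM (counts scaled to a common library size). FPKM values in the table are scaled by the total count alone, whereas fold changes and CPM used TMM factors (0.890 to 1.15), which correct for differences in composition. Scaling by total counts in place of TMM adds 0.10 to the log2 fold change of MA against LA, 0.15 to that of HA against LA and 0.04 to that of HA against MA. A pair of features of the libraries, seen in the data, touch several members. Among abundant genes (4354 with at least 100 counts everywhere), LA1 and HA2 were the closest 2 libraries although their diets differ, their median log2 difference being 0.123 where every other pair had 0.195 to 0.456. Where libraries 1 and 2 of a diet were 8-fold or more apart in CPM, the place of library 3 in the gap between them was read. It lay well inside this gap in 81.3% of genes in LA, 79% in MA and 81.5% in HA. Values near either end of the gap were not counted. Copies of 1 gene in the duplicated goldfish genome can share reads, and how such reads were counted is not given in the sources used here, so that values of near-identical copies are uncertain.

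Of the 188 members, 174 had a count in at least 1 library and 128 were abundant enough to be tested. The median of the mean FPKM over all members was 0.442. Only 64 members reached a mean of 1 FPKM, and 7 reached 10. The 60 untested members had at most 71 counts over the 9 libraries together (LOC113078599, a partial KDM2A-like copy). Many names stood on several genes: the set-1-like name on 10, none of them tested, the DNA methyltransferase 3A and histone methyltransferase 2B names on 9 each and SETD1B-A on 6. The 14 members with no count in any library were 4 set-1-like copies, 3 PRDM6 copies, 2 SETD1B-type copies, 1 EZH2-like copy, 1 SUV39H1-A copy, 1 SMYD3-like copy, 1 ASHH1-like copy and 1 PRMT8-B-like copy. The enzyme classes thus differed widely in level, with the SMYD class far above the rest and demethylases detected throughout: all 46 demethylases had a count, and 44 were tested.

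**Figure D1:**
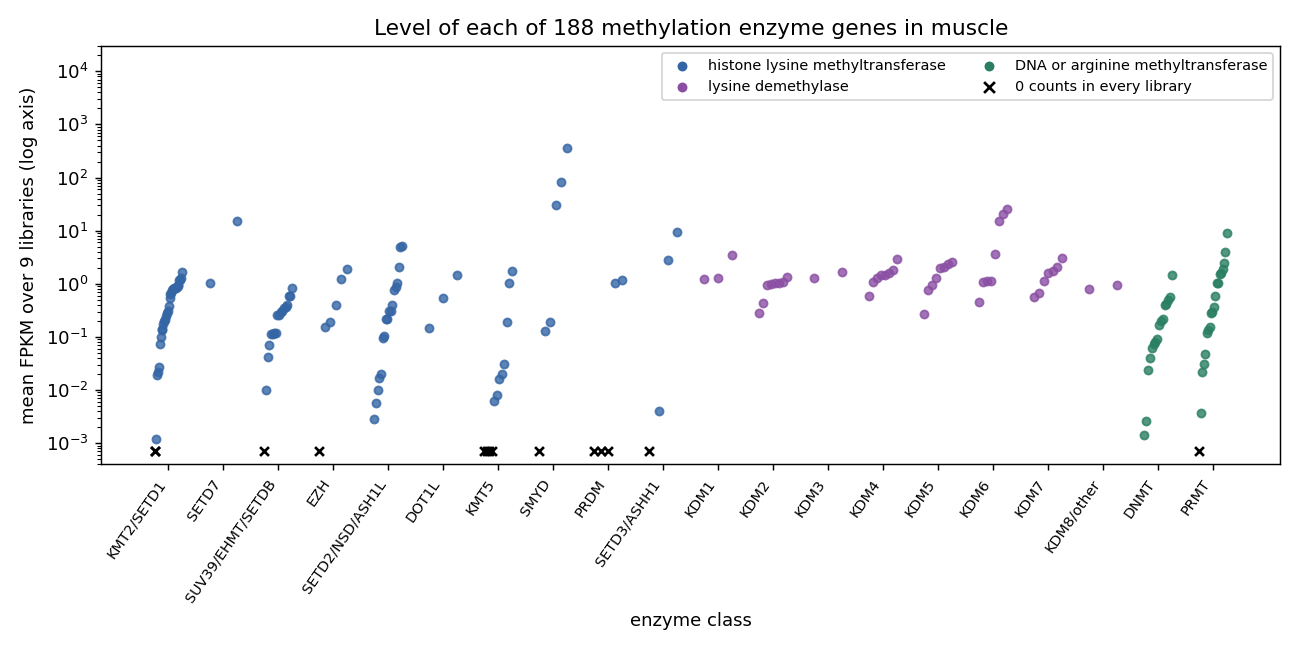
Mean FPKM over the 9 libraries (log axis) of each of the 188 members, by enzyme class, with one point per gene. Crosses at the foot mark the 14 members with no count in any library. The 3 highest points of the SMYD class are the SMYD1-like copies, at 361, 82.0 and 29.9 FPKM, and the KDM6 class reached 25.4 FPKM.

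The 3 SMYD1-like copies, which encode the muscle-specific SMYD1 methyltransferase, were the most abundant members and made up 62.7% to 75.2% of the summed FPKM of all members in each library. The copy on chromosome 5 (LOC113084607, 27807332 to 27829061 on the goldfish assembly ASM336829v1) had 405, 376 and 377 FPKM in LA libraries, 346, 360 and 364 in MA libraries and 293, 396 and 337 in HA libraries. All 3 MA libraries lay below the LA libraries, and its log2 fold change was -0.22 (SE 0.21) in MA against LA and -0.30 (SE 0.21) in HA against LA. The copy on chromosome 30 (LOC113048748, 557411 to 565612) had 101, 94.6 and 95.2 FPKM in LA libraries, 53.4, 84.6 and 64.8 in MA libraries and 70.5, 95 and 78.7 in HA libraries. The third copy, on chromosome 8 (LOC113106880), had 35.8, 17.1 and 24.6 FPKM in LA libraries, 36.9, 39.3 and 33.3 in MA libraries and 21.3, 35.1 and 25.7 in HA libraries. In the chromosome 30 copy the MA libraries were below every LA library (log2 fold change -0.64, SE 0.22, edgeR Benjamini-Hochberg adjusted p = 0.314), and in the chromosome 8 copy the groups overlapped (0.38, SE 0.34). The sum over the copies was 437, 484 and 462 FPKM in MA libraries and 384, 527 and 441 FPKM in HA libraries, against 542, 488 and 497 FPKM in LA libraries. In bulk muscle, fewer cells of a type and less RNA per cell cannot be told apart.

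SETD7 on chromosome 14 (LOC113114054), a monomethyltransferase of H3K4 and of other proteins, was the next most abundant writer and varied little. It averaged 16.4 ± 0.87 FPKM in MA libraries and 16.4 ± 1.93 FPKM in HA libraries, against 12.8 ± 1.08 FPKM in LA libraries (SD, n = 3 each). All MA and HA libraries lay above all LA libraries, but the log2 fold changes were only 0.25 (SE 0.17) in MA against LA and 0.20 (SE 0.17) in HA against LA. The setd3 gene on chromosome 17 (LOC113117421, 16459325 to 16480317) had 13.7, 12.4 and 12.2 FPKM in LA libraries, 6.15, 6.90 and 6.29 in MA libraries and 5.67, 13.0 and 9.22 in HA libraries. Its MA values were thus close together at about the lower end of the range, while the HA libraries spanned the values of both other diets. Its log2 fold change was -1.10 in MA against LA (SE 0.32, edgeR Benjamini-Hochberg adjusted p = 0.247) and -0.56 in HA against LA (SE 0.32, adjusted p = 0.866). The other setd3-like gene (LOC113094533), at a mean of 2.79 FPKM, did not follow it, with a fold change of 0.01 (SE 0.28) in MA against LA.

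The members that varied most were copies of KDM6B, the demethylase that takes the polycomb mark off H3K27, and of DOT1L, the methyltransferase of H3K79. Libraries of the same diet lay far apart in them. The KDM6B-like copy at 5659242 to 5736789 on chromosome 7 (LOC113105649) had 66.2, 0.122 and 26.7 FPKM in LA libraries, 0.739, 7.74 and 3.86 in MA libraries and 2.66, 50.2 and 27 in HA libraries. These are 9916, 18 and 3671 counts in LA, 120, 1022 and 572 in MA and 361, 7504 and 3776 in HA. In each diet the library with the lowest share of mapped reads in the paper's statistics (LA1, MA2 and HA2) had the highest value. The library with the highest share (LA2, MA1 and HA1) had the lowest value. The part of the mapped share in these values was not tested. LA1 was 542-fold above LA2, HA2 18.9-fold above HA1 and MA2 10.5-fold above MA1, and library 3 lay between the other 2 libraries in every diet.

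Another KDM6B-like copy (LOC113105851, 10528958 to 10576008 on chromosome 7) followed the same order, with 60, 0.785 and 25.2 FPKM in LA libraries, 6.29, 25.9 and 15.4 in MA libraries and 17.7, 45.7 and 31.4 in HA libraries. The copy on chromosome 32 (LOC113052186) did so too, with 10.1, 0.550 and 4.4 FPKM in LA libraries, 0.754, 1.90 and 1.20 in MA libraries and 1.92, 7.13 and 4.93 in HA libraries. The fourth copy, on chromosome 35 (LOC113054205), did not share this order: it spanned only 2.29-fold over the 9 libraries, with 13.6, 9.14 and 11 FPKM in LA libraries, 16.8, 16.2 and 16.6 in MA libraries and 20.9, 11.7 and 18.0 in HA libraries. In MA against LA the log2 fold changes were -3.15 (SE 1.60), -1.06 (SE 1.05), -2.15 (SE 0.87) and 0.45 (SE 0.23) in this order of copies, with edgeR Benjamini-Hochberg adjusted p of 0.492, 0.757, 0.383 and 0.503. The first 3 of these depend strongly on single LA libraries: without LA1 they were -1.86 (LOC113105649), 0.16 (LOC113105851) and -1.06 (LOC113052186). Over the 8 tested genes of the KDM6 class, the median in MA against LA was -0.21 with all libraries and 0.06 without LA1. Without LA2, the lowest LA library in these copies, the class median was -0.52.

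Of the DOT1L copies, 2 had the same highest and lowest libraries. The copy on chromosome 22 (LOC113039587, 8490107 to 8521199) had 4.25, 0.215 and 1.65 FPKM in LA libraries, 0.354, 0.621 and 0.443 in MA libraries and 0.519, 3.01 and 1.88 in HA libraries. A copy on an unplaced sequence (LOC113077116) had 1.60, 0.0309 and 0.763 FPKM in LA libraries, 0.159, 0.15 and 0.266 in MA libraries and 0.0897, 1.22 and 0.607 in HA libraries. Again LA1 and HA2 were highest and LA2 lowest. The third copy, on chromosome 47 (LOC113064939, mean 0.144 FPKM), had its highest value in HA1. In MA against LA the log2 fold changes of the 3 copies were -2.28 (SE 0.93), -2.19 (SE 1.12) and -1.05 (SE 0.50), the smallest edgeR Benjamini-Hochberg adjusted p being 0.388. Without LA1 the values were -1.07 for LOC113039587 and -1.10 for LOC113077116.

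**Figure D2:**
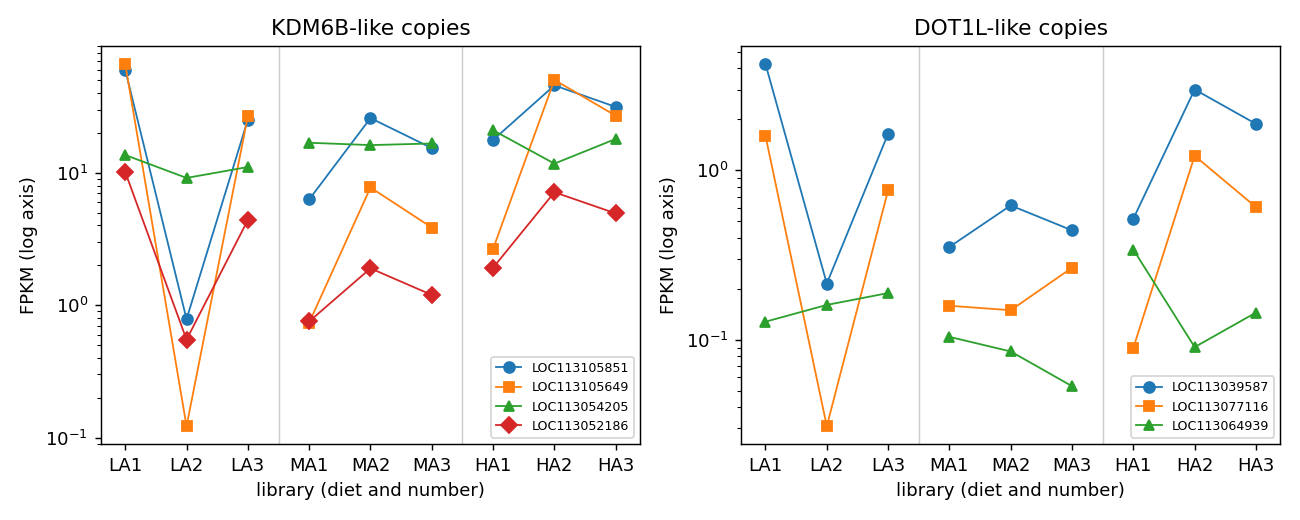
FPKM (log axis) of the 4 KDM6B-like copies (left) and the 3 DOT1L-like copies (right) in each of the 9 libraries, joined within a diet to guide the eye. Of the KDM6B-like copies, 3 were highest in LA1 and HA2 and lowest in LA2, while LOC113054205 stayed between 9.14 and 20.9 FPKM.

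Through these copies the summed level of the demethylases differed widely between libraries of one diet. The 4 KDM6B-like copies summed to 150, 10.6 and 67.4 FPKM in LA libraries, 24.6, 51.7 and 37.0 in MA libraries and 43.2, 115 and 81.3 in HA libraries. They were 17% to 72.5% of the demethylase sum, while the other 42 demethylases together stayed between 51.8 and 65.6 FPKM. Among tested members, 6 of 128 (4.69%) had a within-diet SD over 1 on the log2 CPM scale, against 9.47% of all genes tested. These were 3 KDM6B-like copies, 2 DOT1L-like copies and 1 PRMT7-like copy (LOC113078202), which had 2.01, 0.466 and 1.22 FPKM in LA libraries, 0.697, 0.286 and 0.278 in MA libraries and 0.531, 2.20 and 1.76 in HA libraries. The members as a whole were steadier than other genes, with a median within-diet SD of 0.330 against 0.447 over all genes tested. LA1 and HA2 were the 2 highest libraries in 22 members (17.2%, all genes 14.8%) and the 2 lowest in 14 (10.9%, all genes 13.6%). Guanidinoacetate N-methyltransferase (gamt), which makes creatine with S-adenosylmethionine and was looked at after its values were seen, had 849, 324 and 533 FPKM in LA libraries, 563, 619 and 560 in MA libraries and 552, 869 and 646 in HA libraries. The part of library differences of this kind in the KDM6B and DOT1L values was not tested.

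Diet comparisons used edgeR's quasi-likelihood test on all 23946 genes tested, with Benjamini-Hochberg adjustment over all of them. No member passed an adjusted p of 0.05 in MA against LA, in HA against LA or in HA against MA, nor in the test among the 3 diets. The shares of all genes that passed were 0.0835% in MA against LA, 0% in HA against LA, 0.0543% in HA against MA and 0.0793% among the 3 diets. By direction the calls were 0.0501% higher and 0.0334% lower in MA against LA and 0.0209% higher and 0.0334% lower in HA against MA. Those with a log2 fold change of at least 2 in either direction were 0.0668% in MA against LA and 0.0376% in HA against MA, with 0 members in each. The smallest adjusted p of a member was 0.229 in MA against LA, 0.709 in HA against LA, 0.308 in HA against MA and 0.322 among the 3 diets. DESeq2 on the same genes also called 0 members in each of these, although it called 440, 49 and 296 genes of the whole table in the 3 comparisons and 543 among the 3 diets.

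At an unadjusted p under 0.05, edgeR marked 12 members in MA against LA (9.38%, all genes 11.5%), 4 in HA against LA (3.12%, all genes 6.22%), 11 in HA against MA (8.59%, all genes 10%) and 11 among the 3 diets (8.59%, all genes 10.8%). None of these shares exceeded that of all genes. By direction, 2 were higher and 10 lower in MA against LA (1.56% and 7.81% of members, all genes 5.3% and 6.18%), 3 higher and 1 lower in HA against LA (all genes 2.74% and 3.48%), and 10 higher and 1 lower in HA against MA (7.81% and 0.781% of members, all genes 5.2% and 4.84%). These splits by direction changed with single libraries. In MA against LA there were 6 higher and 5 lower without LA1, 2 and 16 without LA2, 3 and 6 without MA2, and 1 and 3 without MA3. In HA against MA there were 3 higher and 2 lower without MA2, 4 and 1 without MA3, and 5 and 2 without HA3. In HA against LA there were 8 higher and 5 lower without LA1, 6 and 5 without HA2, 1 and 2 without HA1, and 1 and 0 without LA3. The 3 libraries of a diet did not overlap those of the other in TMM-scaled CPM in 25 members in MA against LA (19.5%, all genes 16.7%), in 13 in HA against LA (10.2%, all genes 10.1%) and in 23 in HA against MA (18%, all genes 17.7%). Of these, 10 were higher and 15 lower in MA against LA (all genes 8.27% and 8.43%), 9 higher and 4 lower in HA against LA (all genes 5.16% and 4.97%), and 16 higher and 7 lower in HA against MA (all genes 9.2% and 8.55%). Log2 fold changes were above 0 in 60 members in MA against LA (46.9%, all genes 47.7%), 69 in HA against LA (53.9%, all genes 49.4%) and 74 in HA against MA (57.8%, all genes 51.4%). The median log2 fold change of the members was -0.03 in MA against LA (all genes -0.03), 0.03 in HA against LA (all genes -0.01) and 0.09 in HA against MA (all genes 0.02). The distance between the quartiles was smaller in the members than in all genes in each comparison. In HA against MA the quartiles were -0.14 and 0.35 in the members and -0.32 and 0.32 in all genes. MA against LA and HA against LA share the LA libraries, and HA against MA shares libraries with both.

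**Figure D3:**
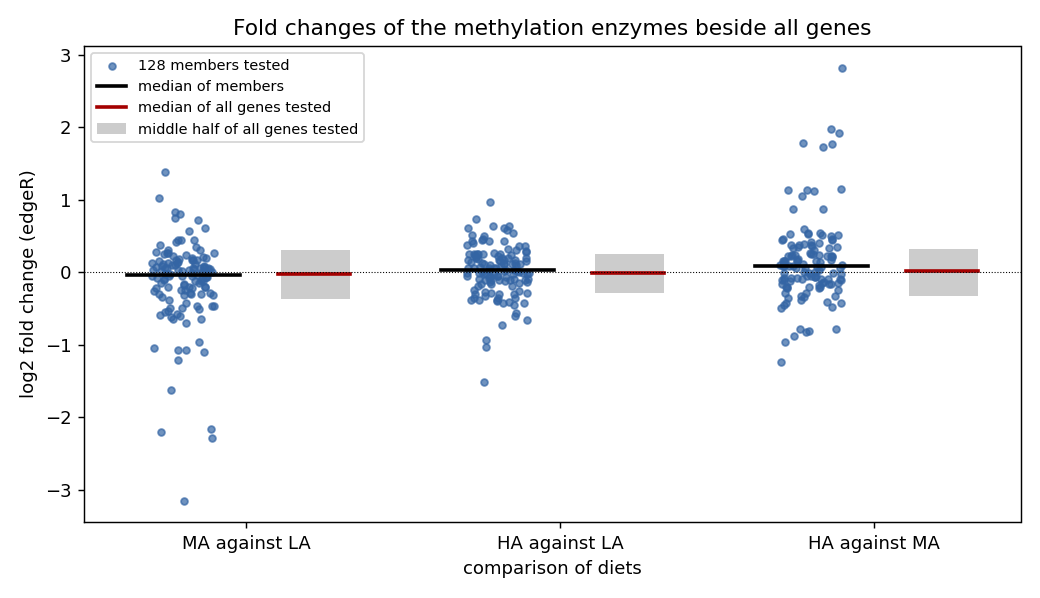
Log2 fold change (edgeR) of the 128 tested members in each comparison of diets, one point per gene, with their median as a black line. The grey box and red line give the middle 50% and the median of all 23946 genes tested; the medians of the members lie at -0.03, 0.03 and 0.09.

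In MA against LA the members of smallest p among those lower in MA were a KMT2D-like gene, setd3, a KDM2B-like gene, the SMYD1-like copy of chromosome 30 and a KMT2E-like gene. KMT2D is one of the large H3K4 methyltransferases that act at enhancers. Its copy on an unplaced sequence (LOC113070551) had 1.5, 1.24 and 1.45 FPKM in LA libraries, 0.715, 1.14 and 0.977 in MA libraries and 1.49, 1.34 and 1.56 in HA libraries. The MA libraries lay below both other diets without overlap, with a log2 fold change of -0.69 in MA against LA (SE 0.19, edgeR Benjamini-Hochberg adjusted p = 0.229). Between MA and LA libraries with the same rank of mapped read share within their diet (low, middle and high), the log2 differences were -0.71, -0.66 and -0.69. Other members were less even. The KDM2B-like gene LOC113110259 had -1.77, -0.57 and -0.65, and KDM6B-like LOC113105649 had -3.41, -2.89 and 2.57. The part of the mapped share in these values was not tested. The KDM2B-like gene on chromosome 10 (LOC113110259), a demethylase of H3K36 that also recruits polycomb complexes in mammals, had 2.59, 1.26 and 1.70 FPKM in LA libraries, 0.745, 0.928 and 1.21 in MA libraries and 0.960, 1.47 and 1.27 in HA libraries. Its log2 fold change was -1.07 (SE 0.34, adjusted p = 0.271 by edgeR with Benjamini-Hochberg) in MA against LA and -0.72 (SE 0.34) in HA against LA, where the groups overlapped. The KMT2E-like gene on chromosome 4 (LOC113061806), named as inactive in its description, stood at -0.49 (SE 0.19, adjusted p = 0.353 by the same test).

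Those of smallest p among members higher in MA were 2 PRMT1 genes, SETDB2-like, SETDB1-A-like and prmt9. PRMT1 is the main enzyme of asymmetric arginine dimethylation. The PRMT1 gene at 23584674 to 23589090 on chromosome 28 (LOC113047260) had 1.38, 0.732 and 1.03 FPKM in LA libraries, 1.97, 2.76 and 2.29 in MA libraries and 3.46, 1.30 and 2.31 in HA libraries. All MA libraries lay above all LA libraries, and the log2 fold change was 1.03 in MA against LA (SE 0.34, edgeR Benjamini-Hochberg adjusted p = 0.282) and 0.97 in HA against LA (SE 0.34, adjusted p = 0.716), where HA2 fell within the LA range. With neither LA1 nor HA2 in the fit its fold change in MA against LA was 1.34 (SE 0.28) with an edgeR adjusted p of 0.0495, the only value of a pairwise comparison to pass in any alternative run. In that run 542 of 25074 genes passed, and 1 of 129 members. A second PRMT1 gene on the same chromosome (LOC113047281, 23935385 to 23939792) had 3.57, 3.71 and 2.53 FPKM in LA libraries, 6.47, 4.14 and 5.31 in MA libraries and 3.36, 2.97 and 3.22 in HA libraries. Its FPKM was highest in the 3 MA libraries, although MA2 fell within the LA range after TMM scaling. Its log2 fold change was 0.61 in MA against LA (SE 0.26, edgeR adjusted p = 0.408) and -0.81 in HA against MA (SE 0.26, adjusted p = 0.349).

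The more abundant PRMT1-like gene of chromosome 3 (LOC113045754, mean 9.07 FPKM) did not share these directions. It had 14.6, 6.78 and 8.71 FPKM in LA libraries, 6.05, 9.69 and 6.12 in MA libraries and 6.43, 13.7 and 9.5 in HA libraries, with LA1 and HA2 highest, and stood at -0.60 (SE 0.40) in MA against LA. The sum of the 20 arginine methyltransferases was 23.8, 26.7 and 24.6 FPKM in MA libraries and 23.4, 27.6 and 24.7 FPKM in HA libraries, against 28.8, 19.3 and 22.3 FPKM in LA libraries, with full overlap of the diets. The remaining 3 genes of that direction were low: SETDB2-like (LOC113044691), a relative of the H3K9 methyltransferases, had a log2 fold change of 1.39 (SE 0.62) at 0.317, 0.744 and 0.347 FPKM in MA libraries against 0.125, 0.254 and 0.102 in LA libraries. SETDB1-A-like (LOC113120007) stood at 0.44 (SE 0.21) and prmt9 at 0.84 (SE 0.43).

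HA against LA had the fewest members at an unadjusted p under 0.05, as given above. The member of smallest p was a KDM2A-like gene on chromosome 14 (LOC113113665), a demethylase of H3K36, with 0.698, 0.804 and 0.949 FPKM in LA libraries, 1.02, 1.03 and 1.05 in MA libraries and 1.43, 1.25 and 1.45 in HA libraries. The FPKM of the 3 diets followed the order of added Met without overlap, and the log2 fold change was 0.61 (SE 0.20, edgeR Benjamini-Hochberg adjusted p = 0.709). After TMM scaling, the MA and LA libraries of this gene overlapped. Of the 7 tested genes of the KDM2 class, only this 1 was above 0 in HA against LA (class median -0.09). The others named as higher, beside PRMT1, were SETDB1-A-like LOC113062169 (0.73, SE 0.31), DNMT3A-like LOC113075064 (0.54, SE 0.27) and KMT2A-like LOC113114935 (0.37, SE 0.19). Named as lower, beside KDM2B, were prmt2 (-1.03, SE 0.49), a second KDM2B-like gene (LOC113070766, -0.93, SE 0.41), EHMT1-like LOC113049308 (-0.66, SE 0.35) and KMT5B-like LOC113118399 (-0.40, SE 0.20), the H4K20 methyltransferase. None of them passed the adjusted test.

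**Figure D4:**
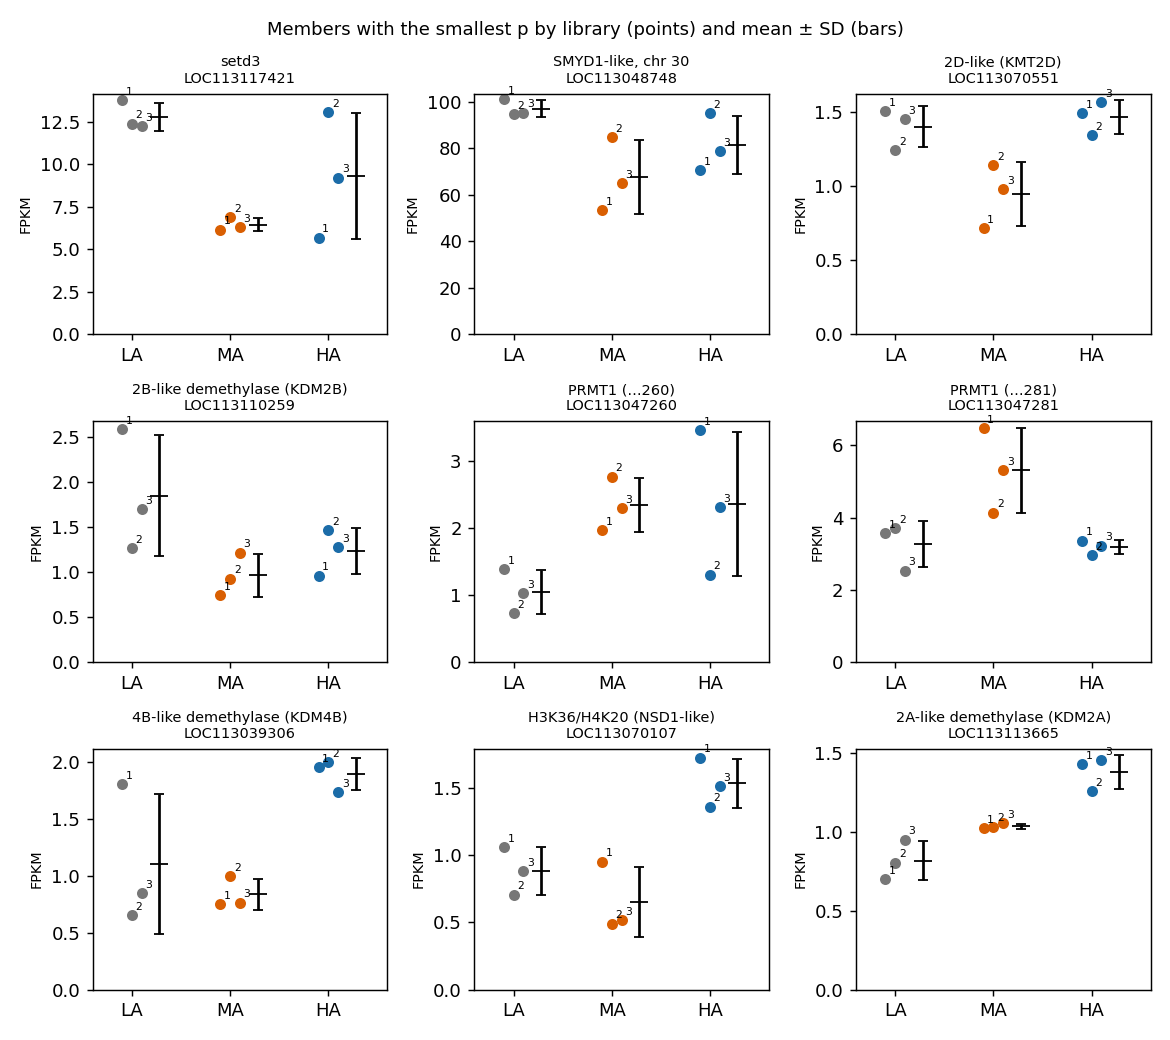
FPKM of 9 members among those with the smallest p, by diet in the order LA, MA, HA; points are libraries with their number, bars the mean and SD of 3 libraries. In setd3 the MA libraries lie between 6.15 and 6.90 FPKM, and the HA libraries between 5.67 and 13.0 FPKM.

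In HA against MA, which differ in added Met alone, 74 of the 128 tested members were above 0 (57.8%, all genes 51.4%). The member of smallest p was a gene described as specific for H3K36 and H4K20, the name NSD1 goes by (LOC113070107, unplaced), with 1.06, 0.704 and 0.881 FPKM in LA libraries, 0.949, 0.491 and 0.515 in MA libraries and 1.72, 1.36 and 1.51 in HA libraries. Its HA libraries lay above all others, with a log2 fold change of 1.14 in HA against MA (SE 0.33, edgeR Benjamini-Hochberg adjusted p = 0.308) and 0.63 in HA against LA (SE 0.33). The other genes of this name did not follow it. LOC113114008 stood at -0.06 in HA against MA and -0.35 in HA against LA, and LOC113057599 at -0.20 and 0.02. A KDM4B-like gene on chromosome 22 (LOC113039306), a demethylase of H3K9 and H3K36, had 1.80, 0.653 and 0.849 FPKM in LA libraries, 0.748, 0.997 and 0.763 in MA libraries and 1.96, 2.00 and 1.74 in HA libraries. LA1 stood apart from LA2 and LA3 and near the HA libraries. The log2 fold change was 1.16 in HA against MA (SE 0.37, edgeR adjusted p = 0.342), and without LA1 the gene passed the test among the 3 diets (adjusted p = 0.0397), the only member to do so in that test in any alternative run. In that run 336 of 25370 genes passed, and 1 of 129 members. Members of smallest p among those lower in HA than in MA were, beside PRMT1, PRMT7-like LOC113066814 (-0.88, SE 0.43), EZH1-like LOC113097179 (-0.78, SE 0.39), SETD7-like LOC113091145 (-0.78, SE 0.36) and KDM4B-like LOC113074103 (-0.49, SE 0.27). Other PRMT7-like copies did not share this direction. LOC113043703 stood at 0.25 in HA against MA, and LOC113078202 was higher in HA2 and HA3 than in every MA library. The far more abundant SETD7 gene LOC113114054 stood at -0.05.

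The class of KMT2 and SETD1 names held 10 of the 16 members that were higher in HA than in MA without overlap. It takes in the H3K4 methyltransferases that are catalytic subunits of the COMPASS complexes. It also takes in 2 KMT2E genes, LOC113061806 among them being named as inactive. Of its 32 members 24 were tested, and 21 of these had a positive log2 fold change in HA against MA (median 0.34), where 51.4% of all genes tested did (median 0.02). Of these 24, 10 had HA libraries that did not overlap the MA libraries, where 9.2% of all genes were so placed, and 5 had an unadjusted p under 0.05, all higher (5.2% of all genes). In HA against LA 19 of the 24 were positive (median 0.14), and in MA against LA 9 (median -0.14), with 6 lower in MA without overlap, where 8.43% of all genes were so placed. Over the settings that left out 1 library, the median in HA against MA ran from 0.26 to 0.41 and 20 to 23 genes were positive. The count at an unadjusted p under 0.05 was less stable, at 1 without MA2, 1 without HA3, 2 without MA3 and 3 without HA1. None of the 24 passed the adjusted test (smallest edgeR adjusted p = 0.334 in HA against MA).

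The summed TMM-scaled CPM of the class showed the same: 236, 196 and 220 CPM in HA libraries and 180, 174 and 172 CPM in MA libraries, against 208, 191 and 194 CPM in LA libraries. The HA libraries were above the MA libraries throughout but overlapped the LA libraries. On the FPKM scale, in which short genes weigh more and no TMM factor is applied, HA2 was not set apart, with sums of 22.5, 14.6 and 19.5 in HA libraries and 13.8, 15.6 and 14.7 in MA libraries. The KMT2C-like and KMT2D-like copies, whose proteins share the mono-methylation of enhancer H3K4, were chosen from the class after their values were seen. Their directions are therefore no separate result. Of 7 tested, 7 were above 0 in HA against MA, where 51.4% of all genes were. In MA against LA 7 of 7 were below 0, where 47.7% of all genes were above 0. Both comparisons use the MA libraries. A KMT2C-like copy on chromosome 2 (LOC113038829) had 0.908, 0.856 and 0.790 FPKM in LA libraries, 0.695, 0.666 and 0.597 in MA libraries and 0.939, 0.915 and 1.03 in HA libraries. Its log2 fold change was 0.51 in HA against MA (SE 0.19, edgeR adjusted p = 0.405) and -0.48 in MA against LA (SE 0.19, adjusted p = 0.374). The widest difference in the class was 1.73 (SE 0.62) of a low KMT2B-like gene on chromosome 44 (LOC113061939), at 0.287, 0.221 and 0.319 FPKM in HA libraries and 0.0958, 0.0295 and 0.105 in MA libraries. The highest copies of the class were KMT2E-like LOC113048205 (1.70 FPKM), the KMT2D-like gene above (1.27) and KMT2A-like LOC113114935 (1.19).

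The writers of H3K9 methylation were low. Of the 18 members of the H3K9 class (SUV39, EHMT and SETDB), 10 were tested, and all stayed under a mean of 1 FPKM, the highest being EHMT1-like LOC113074244 (0.833), SETDB1-A-like LOC113120007 (0.598) and EHMT1-like LOC113049308 (0.584). Their median log2 fold change was 0.23 in MA against LA (7 of 10 positive) and -0.18 in HA against MA (2 of 10 positive). Both are opposite in sign to the medians of the KMT2 and SETD1 class, but both comparisons use the MA libraries. With neither LA1 nor HA2 these medians of the H3K9 class were 0.04 and -0.09. In HA against LA the medians of both classes were above 0. They were 0.12 in the H3K9 class (6 of 10 positive) and 0.14 in the KMT2 and SETD1 class (19 of 24). The 5 SUV39H1-type genes, which make the mark of constitutive heterochromatin, were untested for low counts. Of the polycomb writers, EZH1, the form of resting tissue, exceeded EZH2, the form of dividing cells: EZH1-like genes averaged 1.89 (LOC113046841) and 1.23 FPKM (LOC113097179), and EZH2 (LOC113042268) 0.393 FPKM. The second EZH1-like gene had 0.473, 1.23 and 1.18 FPKM in LA libraries, 1.65, 1.59 and 1.79 in MA libraries and 1.41, 0.460 and 1.27 in HA libraries, with LA1 and HA2 the lowest.

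The H3K36 class was led by ASH1L-like copies on chromosomes 16 (LOC113116331, 5.17 FPKM), 41 (LOC113059914, 4.94) and 19 (LOC113120006, 2.08). Its 12 tested members had median log2 fold changes of -0.04, 0.06 and 0.05 in MA against LA, HA against LA and HA against MA. Of the H4K20 class only the 2 KMT5B genes were tested (LOC113118399, 1.73 FPKM, and LOC113070223, 1.03), and of the PRDM names only the 2 PRDM9-like genes (LOC113111888, 1.17, and LOC113056290, 1.01). PRDM9 is known from meiosis in mammals, where it places recombination sites. Both PRDM9-like genes were lower without overlap in HA against LA (log2 fold change -0.35 and -0.37, SE 0.25 each), and neither passed the test (smallest edgeR adjusted p = 0.910). Of all genes 4.97% were so placed, and of the members 3.12%.

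DNA methyltransferases were scarce as well. Of the 16 genes 8 were tested, and only DNMT3A-like LOC113120548, a de novo methyltransferase, exceeded 1 FPKM. It had 1.06, 1.41 and 1.15 FPKM in LA libraries, 1.22, 0.748 and 1.27 in MA libraries and 3.14, 1.46 and 1.76 in HA libraries. The HA libraries lay above all others, with HA1 well above HA2 and HA3, and the log2 fold change was 0.87 in HA against MA (SE 0.38, edgeR adjusted p = 0.484) and 0.64 in HA against LA (SE 0.38). The next highest were the DNMT3A-like genes LOC113075064 (0.558 FPKM) and LOC113117297 (0.494), and the DNMT1-like gene LOC113042310, for the enzyme that keeps up methylation after replication, had 0.225 to 0.809 FPKM. Over the 8 tested genes the median log2 fold change was -0.20 in MA against LA (3 positive), -0.32 in HA against LA (3 positive) and -0.02 in HA against MA (4 positive).

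Most demethylases other than KDM6B varied little. Of the 44 tested demethylases, 25 varied by less than 2-fold in FPKM over all 9 libraries, where 46 of all 128 tested members did so. Of the KDM5 class, demethylases of H3K4, 6 of 7 stayed under 2-fold, as did all 3 of the KDM1 class and both of the KDM3 class. KDM5 was led by KDM5B-like LOC113111176 (2.61 FPKM), KDM5B-B-like LOC113072091 (2.39) and KDM5C-like LOC113070734 (2.05). KDM1A (LOC113117536, 3.48 FPKM), the flavin-dependent demethylase of the CoREST complex, had log2 fold changes of 0.07 in MA against LA, 0.13 in HA against LA and 0.06 in HA against MA (SE 0.18 each), and its like copy LOC113098446 (1.26) and kdm1b (1.22) were no further from 0 than 0.11. The KDM4 class was led by KDM4C-like LOC113107063 (2.91 FPKM) and the KDM4A-like copies LOC113050981 (1.83) and LOC113045633 (1.57), the KDM3 class by KDM3B-like LOC113069575 (1.64) and LOC113113599 (1.26), and the KDM2 class by the KDM2B-like and KDM2A-like genes named above and KDM2B-like LOC113107738 (1.03). In the KDM7 class KDM7A-like LOC113048207 (3.00), KDM7A-like LOC113061837 (2.11) and phf2 (1.76) were highest, and the 2 genes named lysine-specific demethylase 9-like stood at 0.956 (LOC113065506) and 0.784 (LOC113070515). Over all 44 the median log2 fold change was -0.04 in MA against LA, -0.00 in HA against LA and 0.08 in HA against MA. Each of these changed sign with a library left out, at 0.08 in MA against LA without LA1, 0.15 in HA against LA without LA1 and -0.01 in HA against MA without MA3. PRMT5-like LOC113119990 (2.44 FPKM), the main enzyme of symmetric arginine dimethylation, had 0.27 (SE 0.28) in MA against LA and 0.45 (SE 0.28) in HA against LA.

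The goldfish genome was doubled in an ancient ancestor, and chromosomes with numbers 25 apart carry matching genes. Among the members 32 pairs had the same name on such chromosomes, and in 27 both copies were tested. Their mean FPKM differed by a median of 1.43-fold (range 1.00 to 9.98), by at least 2-fold in 9 pairs, and the same copy was the higher one in all 9 libraries in 13 pairs. The widest gaps among the 27 were those of DOT1L (1.44 FPKM on chromosome 22 and 0.144 on chromosome 47), SMYD1 (361 on chromosome 5 and 82.0 on chromosome 30) and SETD1A (0.840 on chromosome 3 and 0.210 on chromosome 28). At the other end, the KMT2C-like copies of chromosomes 2 and 27 had 0.822 and 0.820 FPKM. The 2 copies of a pair had fold changes of like sign in 18 of 27 pairs in MA against LA, in 16 in HA against LA and in 15 in HA against MA.

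**Figure D5:**
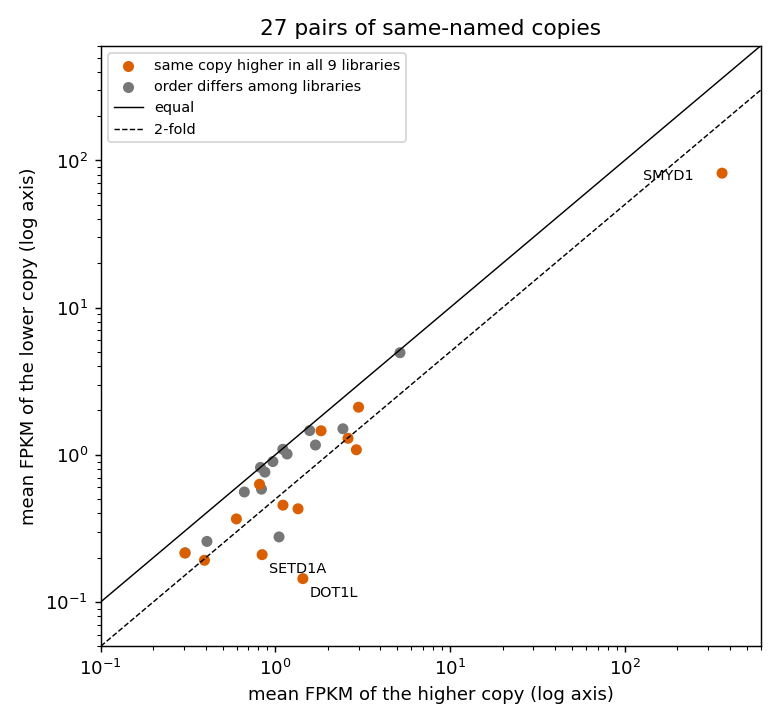
Mean FPKM over 9 libraries of the lower against the higher copy in 27 pairs of same-named members on matching chromosomes (both log axes). Points on the solid line are equal and those under the dashed line differ more than 2-fold; orange points mark the 13 pairs in which the same copy was higher in every library.

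Genes that supply the methyl donor or work beside these enzymes were read from lists by name, and no gene of them passed the adjusted test in any comparison. Of 22 tested genes of methyl donor supply and disposal, 1 was higher and 3 lower in MA against LA at an unadjusted p under 0.05, against 5.3% and 6.18% of all genes. Adenosylhomocysteinase B-like (LOC113050260), which clears the product that inhibits the methyltransferases, had 7.50, 3.30 and 5.68 FPKM in MA libraries, against 11.3, 14.8 and 12.2 FPKM in LA libraries, without overlap (log2 fold change -1.27, SE 0.33, edgeR adjusted p = 0.209), and 9.76, 12 and 11.3 in HA libraries (0.94 in HA against MA, SE 0.33). The more abundant adenosylhomocysteinase B gene LOC113105091 stood at -0.59 (SE 0.20) in MA against LA. Adenosylhomocysteinase 3-like LOC113059961 stood at 1.13 (SE 0.47) there. Betaine-homocysteine S-methyltransferase 1-like (LOC113080755), which rebuilds methionine, stood at -0.97 (SE 0.31, adjusted p = 0.271 by edgeR) in MA against LA. Its other tested copy (LOC113097702) stood at -0.10 (SE 0.20). In HA against LA glycine N-methyltransferase-like LOC113117001 stood at -1.47 (SE 0.46), and the more abundant copy LOC113051607 at -0.29 (SE 0.30). The copies of the mitochondrial carrier of S-adenosylmethionine went opposite ways there, with LOC113055175 at 0.70 (SE 0.25) and LOC113111001 at -1.15 (SE 0.58). Methionine synthase (mtr) stood at 0.82 (SE 0.29) in HA against MA.

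Among 44 tested partners of the methyltransferase and demethylase complexes, protein Jumonji (LOC113119499), a partner of the polycomb complex, stood at -1.18 (SE 0.38, edgeR adjusted p = 0.273) in MA against LA and 1.14 (SE 0.38) in HA against MA. The corepressors that hold KDM1A on chromatin differed, with rcor3 at -0.90 (SE 0.30) in MA against LA and -0.60 (SE 0.30) in HA against LA, and REST corepressor 1-like (LOC113117563) at 0.67 (SE 0.22) in HA against LA and 0.57 (SE 0.22) in HA against MA. Of 23 tested genes that read or remove DNA methylation, mbd4, a DNA repair glycosylase, had 6.88, 8.20 and 6.48 FPKM in MA libraries, against 3.96, 2.85 and 2.86 FPKM in LA libraries. This log2 fold change was 1.04 (SE 0.24, edgeR adjusted p = 0.170), and in HA against MA it was -0.57 (SE 0.24). In the same list a pair of methyl-CpG-binding genes stood at -0.49 (mbd3-like LOC113082032, MA against LA) and 0.47 (mbd3-like LOC113112240, HA against MA).

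Of 36 tested lysine methyltransferases whose names fall outside the rule, kmt5a, the H4K20 monomethyltransferase, stood at -1.24 (SE 0.57) in MA against LA. METTL21C-like (LOC113108139), a muscle methyltransferase in mammals, had a log2 fold change of -1.74 in HA against LA (SE 0.55) with LA1 near the HA libraries: 2.22, 2.89 and 2.24 FPKM in HA libraries against 2.03, 12.5 and 8.55 FPKM in LA libraries. Also named by p were setd6-like (LOC113043254, 1.59 in HA against LA) and METTL21C-like LOC113109317 (-0.84 in HA against MA).

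Markers of other cells in the muscle sample moved with diet or library, and their part in the values above was not tested. The summed leukocyte markers (25 genes, 16 tested) were 25.4, 29.2 and 26.8 FPKM in MA libraries and 36.6, 26.1 and 31.0 FPKM in HA libraries, against 27, 85.3 and 66.0 FPKM in LA libraries. One of them, integrin alpha-M-like (LOC113111995), passed as lower in MA against LA (log2 fold change -2.09, SE 0.26, edgeR adjusted p = 0.0287). The nerve and Schwann cell markers (19 genes, 18 tested, none called) summed to 157 to 228 FPKM in MA libraries and 122 to 129 FPKM in HA libraries, against 101 to 106 FPKM in LA libraries. Hemoglobin genes summed to 778 to 1944 FPKM over the libraries and none was called. Markers of dividing cells (35 genes, 11 tested, none called) summed to 4.45 to 7.30 FPKM. Of the 52 tested skeletal muscle markers, 2 were called higher and 1 lower in MA against LA (all genes 0.0501% and 0.0334%). In HA against LA 0 were called, and in HA against MA 1 was higher and 2 lower (all genes 0.0209% and 0.0334%). The part of these changes in the values above was not tested either.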

How the data were processed

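Muscle RNA of 9 libraries, 3 for each of the LA, MA and HA diets, was enriched for poly(A) and sequenced as paired ends. The authors deposited whole-number read counts and FPKM values per gene and library, with descriptions, on gene models of assembly ASM336829v1, and the deposited FPKM equalled the count divided by gene length and total count (largest relative deviation 5.21e-15). The submitters' processing notes name DESeq2, with aligner, read counter and strandedness not given in the sources used here. Columns were tied to diets through the sample descriptions (columns coded HA, HB and HC are the LA, MA and HA diets). RefSeq's genes of the assembly held all 188 members, 135 of them on numbered chromosomes.

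Counts were fitted in R 4.3.3 with edgeR 4.0.16 (filterByExpr, TMM, quasi-likelihood test, 1 coefficient per diet, 9 libraries, 6 residual degrees of freedom, common dispersion 0.135), with Benjamini-Hochberg adjustment over 23946 genes and a threshold of 0.05. p-values set the difference between diets against the spread between these libraries. Fold changes are log2 and SE is derived from the F statistic. Floors cover counting error only. The members, the enzyme classes, the gene lists and the tests were chosen with earlier results of these data known. Named were, per comparison, any member called, the 5 members of smallest p in each direction, the 2 genes of smallest p in each other list and any member at 0 counts in one diet with over 30 in another (0 members). The 3 members of highest mean FPKM in each class were named as well. Some genes of the other lists that this rule names are not reported here. The procedure was tested on simulated data. Alternatives were RLE factors, no filter, a minimum of 10 counts in each library, a block by replicate number or by the rank of the mapped share, DESeq2 1.42.0, only the 2 groups compared, limma-trend (limma 3.58.1) on log2(FPKM + 1) for genes of at least 0.5 FPKM, each library left out in turn, and neither LA1 nor HA2.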

Additional observations from a re-analysis of the deposited data

How the results depend on the processing

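The count of members called was 0 in MA against LA, HA against LA and HA against MA under every alternative run except that 1 member was called in MA against LA with neither LA1 nor HA2 (PRMT1 LOC113047260, where 542 of all genes were called); among the 3 diets it was 0 throughout except 1 without LA replicate 1 (KDM4B-like LOC113039306, where 336 of all genes were called), a range of 0 to 1 over the libraries left out. The median log2 fold change of members in HA against LA, 0.03 as reported, was 0.11 with limma-trend on log2(FPKM + 1), 0.11 with neither LA1 nor HA2 and 0.012 to 0.13 when each library was left out. In MA against LA it was -0.03, 0.044 with limma-trend and -0.07 to -0.00 over the libraries left out, and in HA against MA 0.09 and 0.030 to 0.12. With limma-trend the median of all genes stood at 0.06 in MA against LA, 0.10 in HA against LA and 0.04 in HA against MA. Of 658 alternative values of named members, 655 kept their direction. Most of these members were named for a small p in the main run, and the alternatives reuse its libraries. The count is therefore no measure of how stable the members are. The reversed values are those of KDM6B-like LOC113105851 in MA against LA, which was named for its level or spread. They were 0.055 with limma-trend, 0.16 without LA replicate 1 and 0.16 with neither LA1 nor HA2. With each library left out the range was -1.64 to 0.16. The replicate block called 0 members in each comparison (4, 0 and 0 of all genes), and it changed no call of a member; the numbers did not pair the libraries (residual correlations of same-numbered libraries -0.60 to 0.27, 5 of 9 libraries closest to their own number). The block by mapped-share rank called 0 members and 116, 4 and 98 of all genes. With no filter, 0 of 174 members were called, and 542, 119 and 321 of all genes. With 3 libraries a diet and most members under 1 FPKM, differences of the size of 1 SE, often 0.2 to 0.5 on the log2 scale, were not detectable. Larger ones also failed to pass. In MA against LA, setd3 at -1.10 was not called, nor was adenosylhomocysteinase B-like LOC113050260 at -1.27 (SE 0.33). The absence of calls therefore does not exclude changes of such size. The cause of the changes with a library left out was not tested.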
